A study of Peromyscus maniculatus with 16 samples.

Results

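The genes described here are 46 genes of DNA replication and of the G1/S transition of the cell cycle, chosen by name from the roles of their proteins. The choice was made with earlier results of these data known, so the list was not tested as a set. In the count table, 44 of the 46 had a row among 16910 genes. No row was found in the table used here for Cdk4 and Rrm2. The table held at most 3 counts of Orc1 in any animal, so Orc1 did not pass the filter on low counts, and 43 members were tested among 12639 genes.

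RNA was sequenced from whole liver of 16 deer mice (Peromyscus maniculatus), outbred rodents bred as closed colonies, all 10 months old. The control group (C) held 6 males on a regular chow diet. After 28 weeks on a high fat diet (HFD), the other animals were grouped by liver histology into 5 males without steatosis (NS) and 5 animals with steatosis (S), the accumulation of fat in liver cells. In S, 35955, 35982 and 35990 were female and 10880 and 36016 were male, so that all 3 females of the study fell into S and sex cannot be fully told apart from steatosis. The labels give 13 animals as BW, the P. maniculatus bairdii stock, and 3 as SM2, another deer mouse stock, with 1 SM2 animal in each group (10876 in C, 10865 in NS and 10880 in S). Diet was assigned, but the division of the HFD animals into NS and S followed the outcome of the diet.

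Before a cell divides, each origin of replication is licensed once. The origin recognition complex (Orc genes), Cdc6 and Cdt1 load the MCM2-7 helicase, which is then activated by Cdc45 and the GINS proteins. DNA polymerases, primase, the sliding clamp PCNA and its loader (Rfc genes), the flap nuclease Fen1 and DNA ligase I (Lig1) make and join the new strands. Entry into this phase is set by D-type and E-type cyclins with their kinases, by E2F transcription factors and by the inhibitors p21 (Cdkn1a) and p27 (Cdkn1b). Most hepatocytes of an adult liver are quiescent, and they re-enter the cycle after injury or loss of tissue.

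Most of these transcripts were scarce. Total counts per animal lay between 4640733 and 11349971, so that 1 CPM (reads scaled to the library total) stood for about 4.64 to 11.35 reads. The CPM given here are after TMM normalization, which shifts the reads per CPM somewhat in each animal. Of the 43 tested members, 16 had under 200 reads over all 16 animals together. Counting error therefore weighs on each value below about 1 CPM. The library of 36016 was the smallest of all. The liver label was checked against 6 hepatocyte marker genes, whose summed level was between 31277 and 63686 CPM in every animal. The RNA came from bulk tissue, in which more cells in cycle and more RNA per cell cannot be told apart.

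To ask what accompanied steatosis under HFD relative to chow, S was compared with C. Of the 43 tested members, 6 (14.0%) were called, meaning an adjusted p under 0.1 and a change of at least 2-fold in edgeR's quasi-likelihood test, where 4.06% of all tested genes were called. By this rule, 5 members rose, Lig1, Ccnd1, Mcm4, Chaf1a and Mcm6, where 3.09% of all genes rose, and Mcm10 fell. With no minimum fold, Mcm5 also rose, which made 7 members (16.3%) against 10.8% of all genes. The median log2 fold change of the members was 0.36 and that of all tested genes was 0.10, and 32 of 43 members had a positive value (74.4%) against 57.8% of all genes. For 5 members (11.6%), Mcm4, Mcm5, Lig1, Chaf1a and Cdk2, every S animal lay above every C animal, while 4.19% of all genes had groups that did not overlap in either direction.

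High levels were gathered in 35990 and 36016. Of the 43 tested members, 12 reached the highest level of all 16 animals in 35990 and 7 in 36016, whereas no other animal held the highest level of more than 4. The same count over all tested genes is not given here, so whether this is particular to the members was not tested. When both animals were omitted, a setting added with the data in view, which left the females 35955 and 35982 and the SM2 male 10880 in S, only Lig1 of the members was still called (2.33% of members against 1.55% of all genes) and the median log2 fold change of the members was 0.16. The fitted log2 fold changes of Mcm4 (1.06), Chaf1a (1.21) and Mcm10 (-2.22) stayed near their values with all animals (1.28, 1.40 and -2.03) although their adjusted p, 0.14 to 0.15, no longer passed with 3 S animals. Those of Mcm6 (0.77), Mcm5 (0.61) and Ccnd1 (0.63) were smaller, against 1.08, 0.89 and 3.15. When only 35990 was left out, 5 members (11.6%, against 4.35% of all genes) were called and the median was 0.20. When only 36016 was left out, 5 (11.6%, against 1.97% of all genes) were called and the median was 0.27. Among male animals alone, which left only 10880 and 36016 in S, 5 members (11.6%, against 5.44% of all genes) were called in S vs C, which were Lig1, Ccnd1, Mcm4, Dtl and Tyms. Among BW animals alone 8 (18.6%, against 4.95%) were called, which were the 6 above with Dtl and Tyms.

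**Figure D1:**
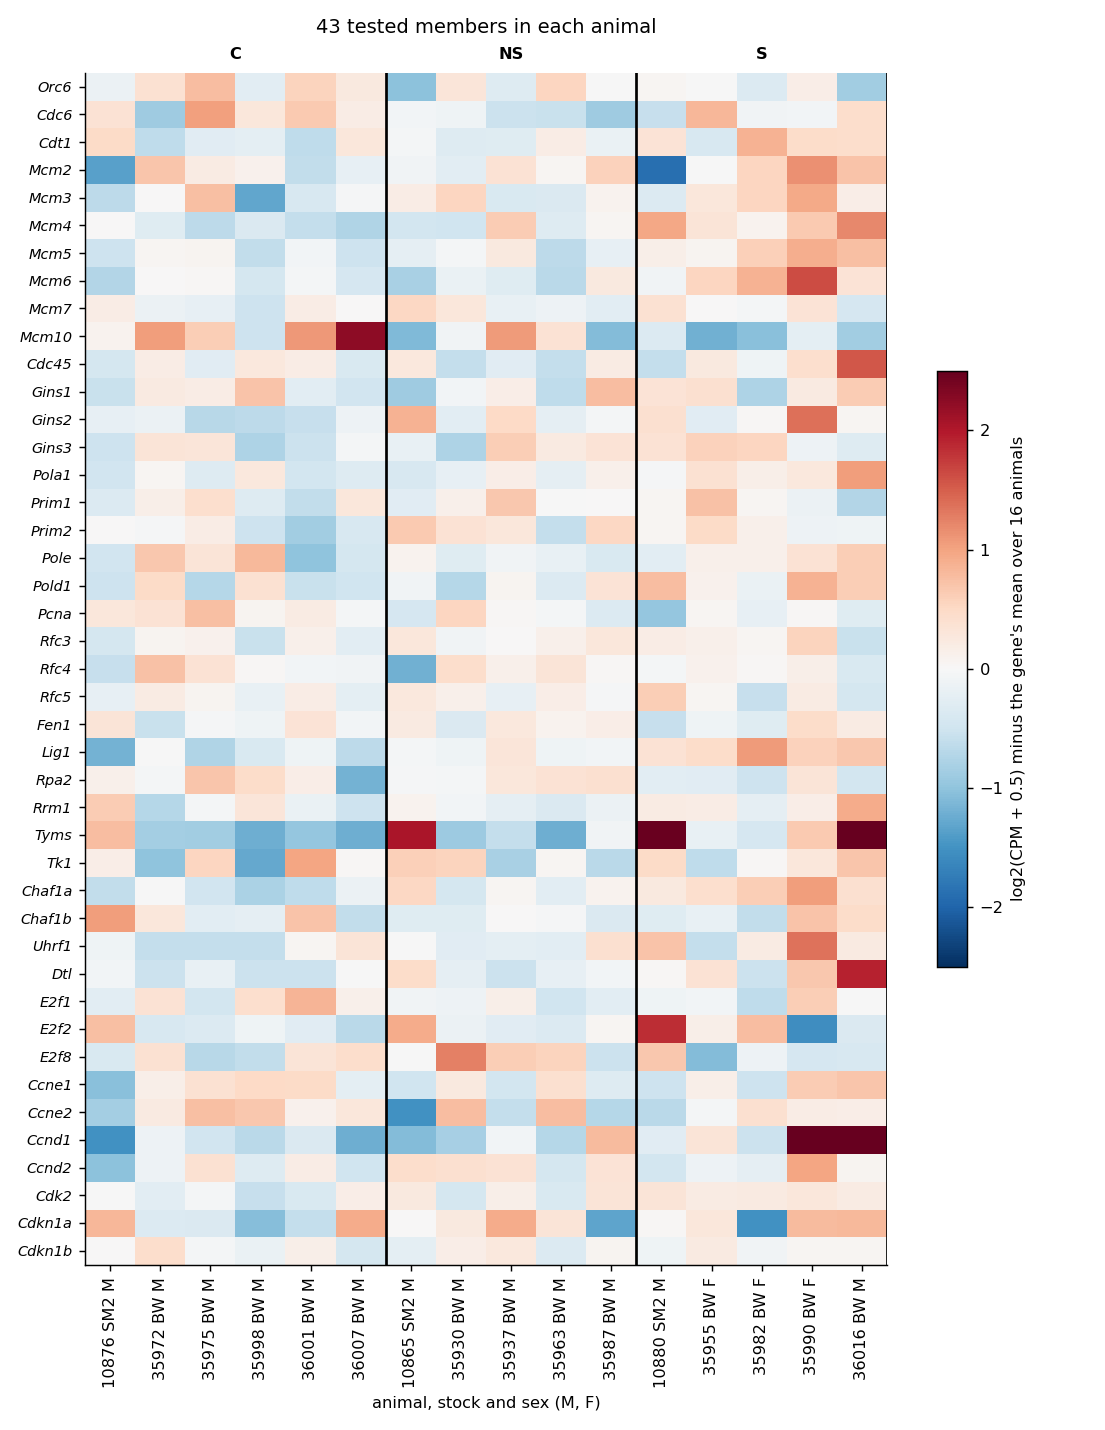
Level of the 43 tested members (rows) in each of the 16 animals (columns, with stock and sex), as log2(CPM + 0.5) minus the mean of the gene over the animals; the colour scale ends at 2.5 on either side. Red cells gather in S animals 35990 and 36016, in which 12 and 7 members had their highest level.

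Among the licensing genes, 4 of the 10 tested passed an adjusted p under 0.1 in S vs C. Mcm4, Mcm5 and Mcm6 belong to the MCM2-7 helicase, the ring that unwinds DNA at the fork. Mcm4 was between 1.66 and 3.15 CPM in C, with a median of 2.12. In NS it was 2.14 CPM in 10865, 2.06 in 35930, 5.16 in 35937, 2.42 in 35963 and 3.26 in 35987. In S it was 6.58 CPM in 10880, 4.01 in 35955, 3.34 in 35982, 5.25 in 35990 and 7.88 in 36016. All S animals thus lay above all C animals, and NS animal 35937 lay within the range of S. The log2 fold change of Mcm4 was 1.28 ± 0.31 (SE) in S vs C (adjusted p = 0.036) and 0.84 ± 0.32 in S vs NS (adjusted p = 0.39).

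Mcm6 had C values of 4.53 to 8.04 CPM, with a median of 6.68. The NS animals had 4.29 CPM in 10865, 6.91 in 35930, 6.24 in 35937, 4.72 in 35963 and 9.38 in 35987. The S animals had 7.31 CPM in 10880, 11.7 in 35955, 14.8 in 35982, 25.5 in 35990 and 10.1 in 36016. The 3 females were the highest animals of S, and 10880 lay within the range of C. The log2 fold change in S vs C was 1.08 ± 0.29 (adjusted p = 0.050), but it was 0.40 with an adjusted p of 0.50 among males alone. It was 0.74 with an adjusted p of 0.10 without 35990. The males of S are 1 BW and 1 SM2 animal, so stock as well as sex changed in that setting. Within stock, 36016 (10.1 CPM) lay above the BW males of C (5.63 to 8.04) and 10880 (7.31) above the SM2 male of C (4.53).

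Mcm5 was 1.72 to 3.05 CPM in C and 1.66 to 3.53 in NS. In S it was 3.29 CPM in 10880, 3.05 in 35955, 4.63 in 35982, 5.91 in 35990 and 5.26 in 36016. The groups C and S did not overlap, although the lowest S value and the highest C value both round to 3.05 CPM. Its log2 fold change was 0.89 ± 0.28 with an adjusted p of 0.079, under 2-fold, and this p stayed under 0.1 in 13 of 26 alternative settings. The other subunits did not pass the test in S vs C. Mcm2 had a log2 fold change of 0.52 ± 0.47 (adjusted p = 0.53), Mcm3 of 0.62 ± 0.41 (adjusted p = 0.36) and Mcm7 of 0.14 ± 0.20 (adjusted p = 0.69). The summed level of the 6 subunit genes was 24.2 to 35.0 CPM in C, 27.3 to 35.7 in NS and 37.8 to 68.7 in S, the highest being 35990.

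Mcm10, a factor that binds the helicase when origins fire, had the opposite direction to Mcm4, Mcm5 and Mcm6. It was 1.56 to 13.4 CPM in C, with a median of 4.83. It was 0.882 CPM in 10865, 2.30 in 35930, 5.70 in 35937, 3.32 in 35963 and 0.889 in 35987 in NS. It was 1.83 CPM in 10880, 0.785 in 35955, 0.927 in 35982, 2.00 in 35990 and 1.13 in 36016 in S. The S values were low and close to each other, but C animal 35998, at 1.56 CPM, lay among them. The log2 fold change in S vs C was -2.03 ± 0.57 (adjusted p = 0.057). Without 36007, the C animal with 13.4 CPM, it was -1.54 with an adjusted p of 0.14, and the p also exceeded 0.1 without 35982 (0.105) and without 36016 (0.109). The log2 fold change was -1.87 both with sex as a covariate (adjusted p = 0.20) and among males alone (adjusted p = 0.23).

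The loading factors Cdc6 and Cdt1 were near the limit of detection. Cdc6 had 0 to 10 counts in C, at most 3 in every NS animal and 1 to 13 in S, and Cdt1, its partner, had 0 to 6 counts in C, at most 3 in NS and 1 to 6 in S. No fold is given against NS for these genes, since a count of 3 or fewer in every animal is at the floor. In S vs C, the log2 fold change was -0.33 ± 0.74 for Cdc6 (adjusted p = 0.82) and 1.11 ± 0.78 for Cdt1 (adjusted p = 0.40). The origin subunit Orc6 had a log2 fold change of -0.50 ± 0.32 (adjusted p = 0.36). Orc6 was better counted, with 10 to 62 counts in each animal. At this depth no difference of Cdc6 or Cdt1 between S and C was detectable.

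The 4 genes that activate the helicase all had positive estimates in S vs C, and none passed the test. Gins2 had 1 to 4 counts in each C animal, or 0.139 to 0.444 CPM. In NS it was 1.39 CPM in 10865, 0.364 in 35930, 0.950 in 35937, 0.383 in 35963 and 0.494 in 35987. In S it was 0.853 CPM in 10880, 0.349 in 35955, 0.556 in 35982, 2.19 in 35990 and 0.563 in 36016. The highest animal was 35990, with 23 counts, followed by 10865 of NS. The log2 fold change was 1.59 ± 0.58 in S vs C (adjusted p = 0.11) and 1.23 ± 0.59 in NS vs C (adjusted p = 0.60). Cdc45 had a log2 fold change of 0.95 ± 0.66 in S vs C (adjusted p = 0.39), and its highest level, 2.25 CPM, was in 36016.

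Of the 12 tested genes of the DNA synthesis machinery, only Lig1, the ligase that seals nicks between Okazaki fragments, passed the test in S vs C. Its C values were 9.84 to 22.5 CPM, with a median of 16.0. Its NS values were 21.9 CPM in 10865, 21.2 in 35930, 28.2 in 35937, 21.0 in 35963 and 21.8 in 35987. Its S values were 29.5 CPM in 10880, 31.4 in 35955, 48.0 in 35982, 34.5 in 35990 and 36.8 in 36016. Each S animal, of either sex and either stock, was above each C and each NS animal, all of which were male. The log2 fold change in S vs C was 1.13 ± 0.20, or 2.19-fold, with an adjusted p of 0.012.

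Lig1 was the member with the smallest adjusted p and kept its call in all 26 alternative settings, between 1.01 and 1.24 on the log2 scale. This included males alone (1.01, adjusted p = 0.055), BW animals alone (1.08, adjusted p = 0.012) and the setting without 35990 and 36016 (1.14, adjusted p = 0.041). With 96 reads or more in every animal, it was also among the better counted members. The estimates between the other groups were smaller and did not pass, at 0.47 ± 0.20 in NS vs C (adjusted p = 0.58) and 0.66 ± 0.21 in S vs NS (adjusted p = 0.31).

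The clamp and polymerase genes did not follow Lig1. Pcna, which encodes the sliding clamp, was 30.9 to 53.8 CPM in C with a median of 38.0. In NS it was 23.7 CPM in 10865, 46.3 in 35930, 32.4 in 35937, 30.6 in 35963 and 25.2 in 35987. In S it was 16.1 CPM in 10880, 33.0 in 35955, 27.4 in 35982, 32.7 in 35990 and 25.7 in 36016. The groups overlapped and the estimate was negative, with a log2 fold change of -0.54 ± 0.21 in S vs C and an adjusted p of 0.14. Pola1, the catalytic subunit of the polymerase that starts each strand, had a log2 fold change of 0.65 ± 0.25 (adjusted p = 0.12), with its highest level of 10.9 CPM in 36016. The other 9 genes (Prim1, Prim2, Pole, Pold1, Rfc3, Rfc4, Rfc5, Fen1 and Rpa2) had estimates between -0.35 and 0.81 in S vs C and overlapping groups, and none passed an adjusted p under 0.1.

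**Figure D2:**
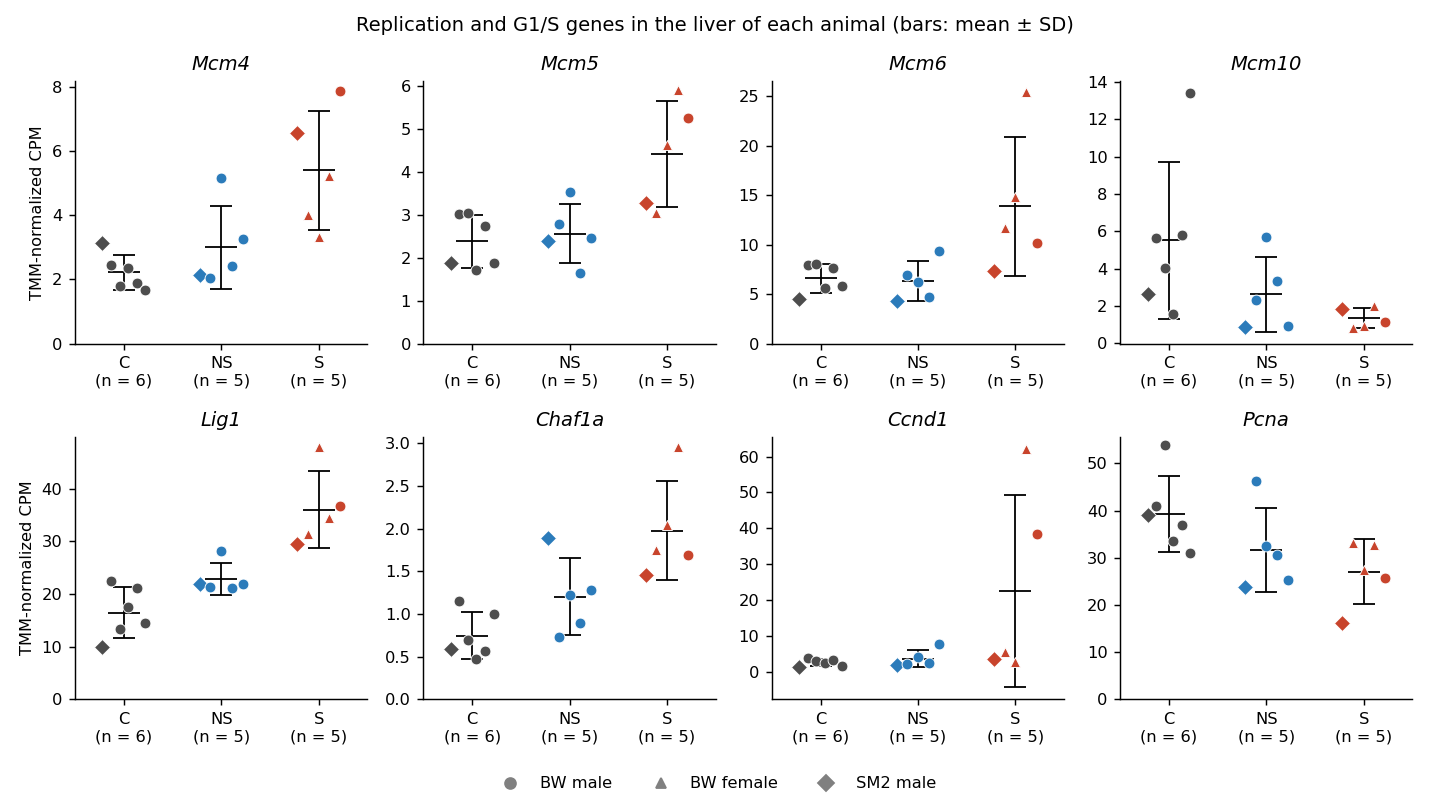
TMM-normalized CPM (vertical axes, linear, from 0 except where the SD bar of Ccnd1 reaches below it) of 8 members in each animal of C (n = 6), NS (n = 5) and S (n = 5), with the mean and SD as bars; circles are BW males, triangles BW females and diamonds SM2 males. The S points of Mcm4, Mcm5, Lig1 and Chaf1a lie above all C points, those of Mcm10 lie low, and Ccnd1 is set apart by 35990 (62.3 CPM) and 36016 (38.5 CPM).

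None of the 3 tested genes of nucleotide supply passed the test in any comparison of groups. Tyms, which makes thymidylate, had the largest estimate of them and the widest spread. It was 1.48 CPM in the SM2 animal of C and at most 0.144 in the other C animals. It was 4.29 CPM in 10865, 0.121 in 35930, 0.271 in 35937, 0 in 35963 and 0.592 in 35987. It was 5.97 CPM in 10880, 0.523 in 35955, 0.371 in 35982, 1.34 in 35990 and 6.57 in 36016. The high animals were the SM2 animal of each group and 36016. The log2 fold change in S vs C was 3.09 ± 1.15 (adjusted p = 0.12). Rrm1, the large subunit of ribonucleotide reductase, had 0.32 ± 0.24 (adjusted p = 0.43) and Tk1, a thymidine kinase of the salvage route, had 0.13 ± 0.60 (adjusted p = 0.92).

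Among the chromatin and licensing turnover genes, Chaf1a, the large subunit of the factor that deposits histones behind the fork, rose in S vs C. In C it was 0.469 to 1.16 CPM, or 3 to 9 counts, with a median of 0.642 CPM. It was 1.89 CPM in 10865, 0.728 in 35930, 1.22 in 35937, 0.893 in 35963 and 1.28 in 35987. It was 1.46 CPM in 10880, 1.74 in 35955, 2.04 in 35982, 2.96 in 35990 and 1.69 in 36016. All S animals exceeded all C animals, and NS lay between the groups and overlapped both. The log2 fold change was 1.40 ± 0.37 (adjusted p = 0.048), and it was 1.06 with an adjusted p of 0.25 among males alone.

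The partner subunit Chaf1b did not move with Chaf1a, with a log2 fold change of -0.40 ± 0.82 in S vs C (adjusted p = 0.80). Uhrf1, which carries DNA methylation over to the new strand, had 0 to 4 counts in C and 0 to 15 in S, with a log2 fold change of 1.74 ± 0.90 (adjusted p = 0.25). Dtl, which directs the destruction of Cdt1, had at most 2 counts in each C animal. In S it had 2 counts in 10880, 5 in 35955, 0 in 35982, 7 in 35990 and 12 in 36016. With C at the floor no fold is given, and the adjusted p in S vs C was 0.11.

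Of the 8 tested G1/S regulators, only Ccnd1 passed the test, and its level divided the S animals. Ccnd1 encodes cyclin D1, the cyclin through which growth signals bring hepatocytes out of quiescence. In C it was 1.18 to 3.90 CPM, with a median of 2.71. In NS it was 1.76 CPM in 10865, 2.18 in 35930, 4.07 in 35937, 2.42 in 35963 and 7.80 in 35987. In S it was 3.41 CPM in 10880, 5.49 in 35955, 2.78 in 35982, 62.3 in 35990 and 38.5 in 36016. The last pair, a female and a male of the BW stock, were far above all others, and the other 3 S animals lay within the range of C and NS together. The log2 fold change in S vs C was 3.15 ± 0.72, or 8.87-fold, with an adjusted p of 0.031. It was 2.29 without 35990, and without both high animals it was 0.63 with an adjusted p of 0.50.

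No E2F or cyclin E gene passed the test in S vs C. Ccne1 had its highest levels of all 16 animals in the animals with the high Ccnd1, at 1.502 CPM in 36016 and 1.43 in 35990, against 0.365 to 0.872 in the other S animals and at most 1.25 in C. In S vs C the log2 fold change was -0.35 ± 0.51 for E2f1 (adjusted p = 0.72), 0.11 ± 0.57 for Ccne1 (adjusted p = 0.93) and -0.31 ± 0.58 for Ccne2 (adjusted p = 0.78). It was 0.82 ± 0.56 for E2f2, an activating E2F (adjusted p = 0.39). For E2f8, a repressor of the family, it was -0.17 ± 0.40 (adjusted p = 0.83). Ccnd2, which encodes cyclin D2, had 16 counts or fewer in every animal and a log2 fold change of 0.64 ± 0.67 (adjusted p = 0.59). Cdk2, the kinase partner of cyclin E, was 6.25 to 10.6 CPM in C, 6.91 to 11.9 in NS and 11.1 to 11.9 in S. The S values were the narrowest of the groups and lay above all C values, but the log2 fold change of 0.43 ± 0.19 did not pass (adjusted p = 0.17).

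The inhibitors also gave no call. Cdkn1a, which encodes p21, varied from 3.34 to 18.8 CPM within S and from 4.69 to 20.3 CPM within C, and its log2 fold change was 0.20 ± 0.45 (adjusted p = 0.82). Cdkn1b, which encodes p27, was steadier, at 12.1 to 22.7 CPM in C and 15.3 to 19.5 CPM in S. Its log2 fold change was 0.02 ± 0.17 (adjusted p = 0.97).

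NS vs C addressed HFD without steatosis. No member was called in edgeR's quasi-likelihood test or by DESeq2, 0.0712% of all genes being called by edgeR, and 3 members (6.98%, against 8.29% of all genes) had an unadjusted p under 0.05, namely Cdc6, Prim2 and Lig1. For 0 members did the groups separate, against 0.989% of all genes. The median log2 fold change of the members was 0.10 and that of all genes was 0.01. Prim2, a primase subunit, had a log2 fold change of 0.59 ± 0.27 (adjusted p = 0.59), and Mcm10 had -1.09 ± 0.54 (adjusted p = 0.63). Mcm6, at -0.06 ± 0.30 (adjusted p = 0.99), and Mcm5, at 0.11 ± 0.29 (adjusted p = 0.96), had estimates close to 0.

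S vs NS compared livers with and without steatosis on the same diet. No member was called by edgeR, where 0.00791% of all genes were, and 5 members (11.6%, near the 10.9% of all genes) had an unadjusted p under 0.05, all with higher estimates in S (Mcm6, Ccnd1, Lig1, Mcm4 and Mcm5). DESeq2 called Ccnd1 (log2 fold change 2.65 ± 0.69, adjusted p = 0.033) and Mcm6 (1.15 ± 0.33, adjusted p = 0.058). The share of all genes that DESeq2 called is not given here. The edgeR estimates were 2.61 ± 0.74 for Ccnd1 (adjusted p = 0.29) and 1.14 ± 0.31 for Mcm6 (adjusted p = 0.29). The median log2 fold change of the members was 0.36 against 0.04 for all genes, and 31 of 43 members (72.1%) were positive against 53.9% of all genes. Without 35990 and 36016 that median was 0.10. Lig1 was the only member whose groups did not overlap (2.33% of members against 1.18% of all genes). Each pair of the comparisons shares a group of animals, so their values do not stand independently.

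**Figure D3:**
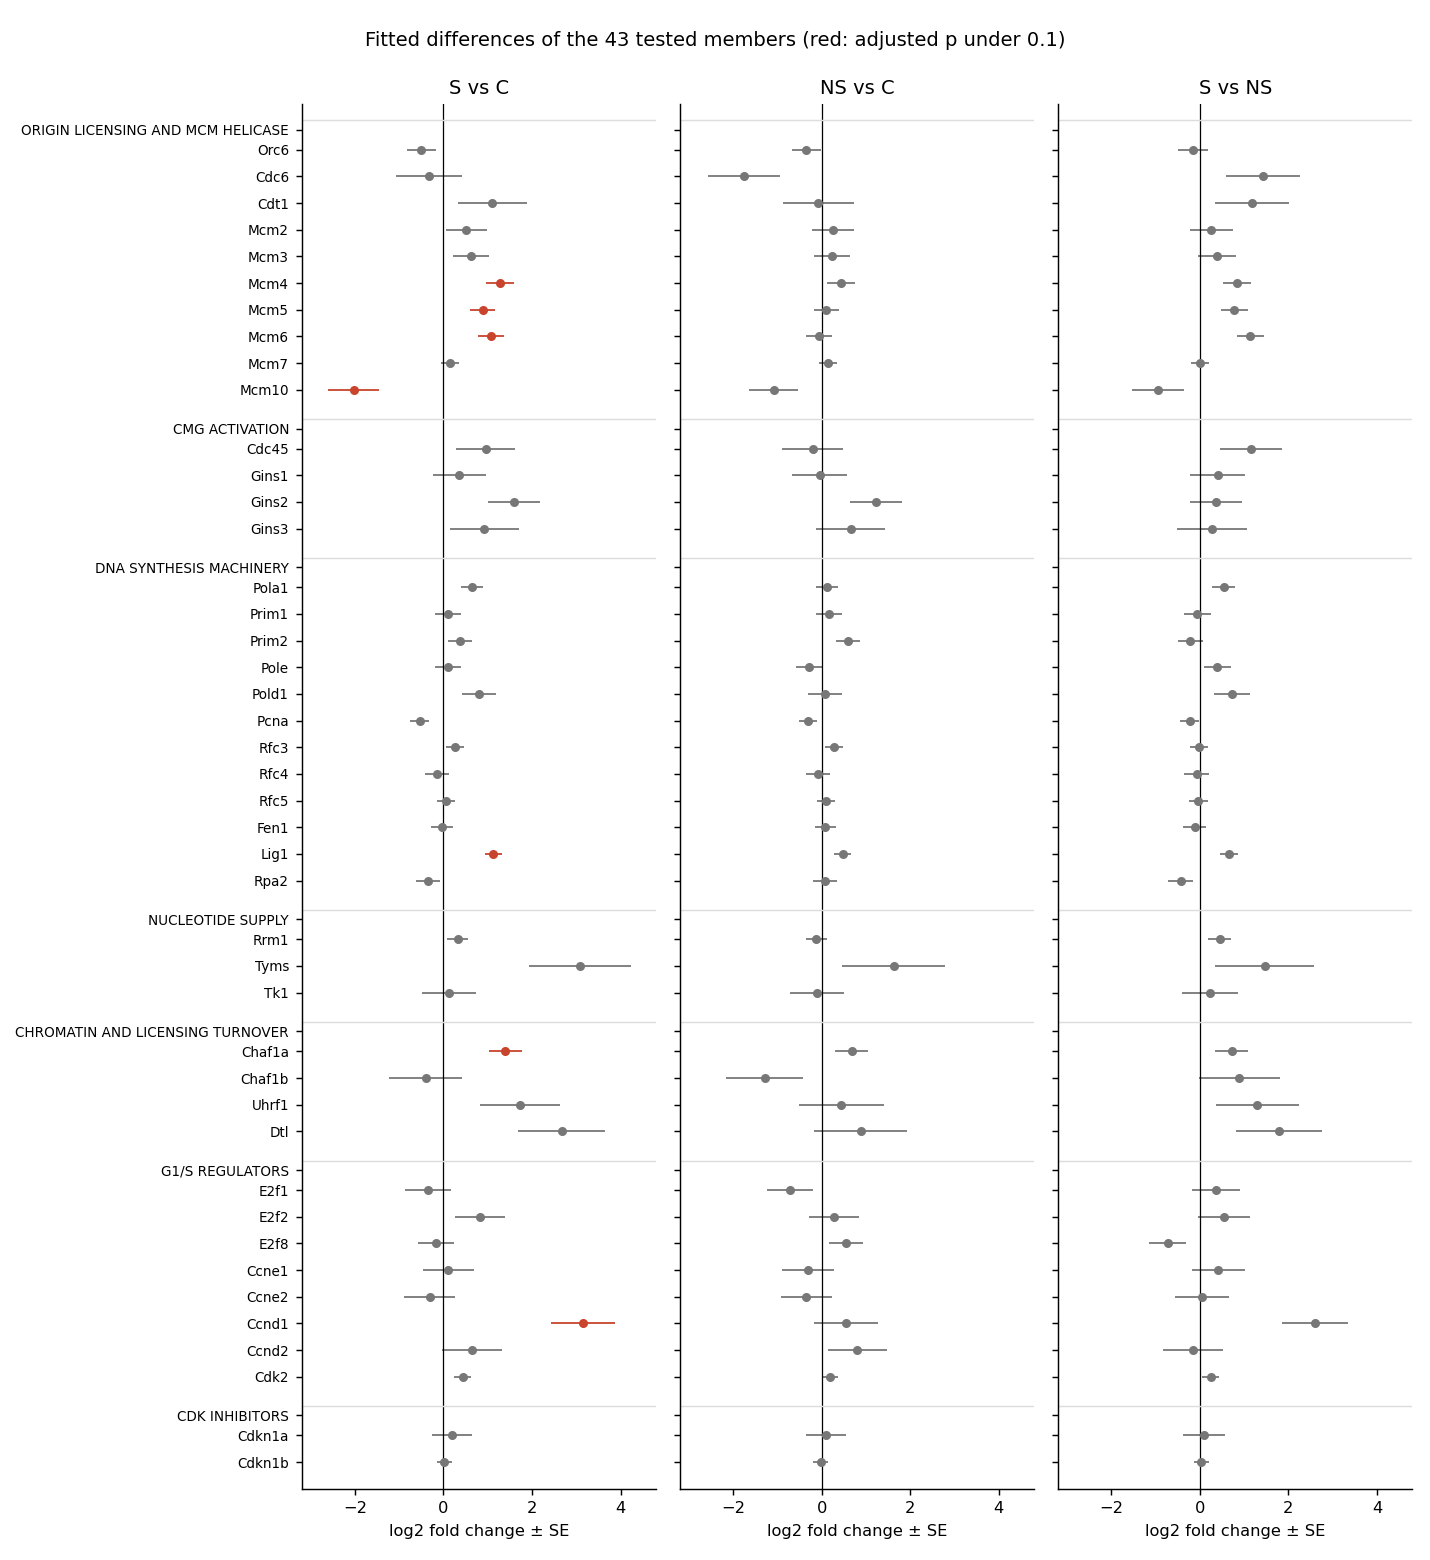
Log2 fold change (points) with its SE (lines) of the 43 tested members in the 3 comparisons (columns), ordered by role; red marks an adjusted p under 0.1 in edgeR's quasi-likelihood test. Red points occur only in S vs C, where 7 members passed, and long lines belong to members with few counts such as Tyms, Dtl and Uhrf1.

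Genes of neighbouring steps of the cycle were read from fixed lists. Of 43 other tested replication and S-phase genes, 4 (9.30%) passed an adjusted p under 0.1 in S vs C, a share near the 10.8% of all genes. Timeless, a fork protection factor (1.37 ± 0.32, adjusted p = 0.034), and Dna2, a nuclease of Okazaki fragment processing (1.07 ± 0.34, adjusted p = 0.079), rose. Rpa3, the small subunit of the single-strand binding protein (-0.79 ± 0.22, adjusted p = 0.050), and Orc4 (-0.43 ± 0.14, adjusted p = 0.080) fell. The median of that list was 0.12, close to the 0.10 of all genes.

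Of 23 other G1/S regulators tested, 5 (21.7%, against 10.8% of all genes) passed in S vs C. Gadd45a, a stress-induced growth arrest gene, rose with a log2 fold change of 1.81 ± 0.49 (adjusted p = 0.050). Ccna2, the S-phase cyclin, rose by 3.17 ± 0.95 (adjusted p = 0.065). The S animals averaged 3.00 ± 3.96 CPM (SD, n = 5) of it, against 0.315 ± 0.203 CPM (SD, n = 6) for the C animals. The E2F partners moved in opposite directions, Tfdp1 by 0.53 ± 0.15 (adjusted p = 0.060) and Tfdp2 by -0.75 ± 0.15 (adjusted p = 0.022). Mybl2, an activator of late cell cycle genes, was at 0 in all C animals and averaged 1.02 ± 2.16 CPM (SD, n = 5) in S (adjusted p = 0.080). Its SD in S was above its mean, so its level was uneven among the S animals. With C at 0, Mybl2 entered the test only through HFD animals, and the share of 21.7% rests in part on it.

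The list of G2/M and mitosis genes had 7 of 21 tested genes (33.3%) called in S vs C, all of them higher (Top2a, Cenpf, Cdk1, Anln, Prc1, Kif23 and Ect2), where 3.09% of all genes were called higher, and a median log2 fold change of 1.98. Its summed level was 100.2 CPM in 36016 and 91.4 CPM in 35990, the animals with the high Ccnd1, and 9.39 to 40.1 CPM in the other 14. Without those animals only 14 of the 21 genes passed the filter of 0.5 CPM in any animal. The others entered the test only through 35990 or 36016, so the share called and the median of 1.98 rest in part on them. Of the 14 genes, 0 were called by edgeR's test, 0 had an unadjusted p under 0.05, and the median was 0.37. S animal 35982, which had the highest Lig1 of all animals, had the lowest mitotic sum of S, at 10.6 CPM. Lig1 exceeded all C and NS values in S animals with and without a high mitotic sum, and its relation to that sum was not tested.

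Markers of other liver cell types also moved with these samples. In S vs C the markers that passed an adjusted p under 0.1 were Fgb (-0.66), Ttr (-0.66) and Apoa1 (0.96) of 6 hepatocyte genes, Cd79b (1.83) of 10 lymphocyte genes and S100a8 (-1.98) and S100a9 (-1.77) of 5 tested granulocyte genes. Of 5 stellate cell genes, Dcn (-1.05) and Col1a1 (5.56) passed. Col1a1 averaged 417.2 ± 917.0 CPM (SD, n = 5) in S, an SD above the mean, against 8.75 ± 4.62 CPM (SD, n = 6) in C. The summed level of all 5 stellate cell genes was 2264 CPM in 36016 and 135.5 to 451.2 CPM in all other animals. The summed level of 6 macrophage genes was 166.0 to 401.2 CPM in C, 160.5 to 367.4 in NS and 88.6 to 627.2 in S, and that of 7 granulocyte genes was 27.1 to 76.4 CPM in C, 10.7 to 57.8 in NS and 5.49 to 27.0 in S. Klf1, a defining erythroid gene, was at 0 in every animal, and Elane, of granulocyte precursors, was at 0 in C. In 35990 the summed levels of 6 macrophage genes (627.2 CPM), 10 lymphocyte genes (17.3 CPM) and 4 bile duct genes (31.1 CPM) were the highest of all animals, and its summed level of 6 hepatocyte genes (31277 CPM) was the lowest, the next being 37603 CPM in 10865. None of the macrophage, endothelial, bile duct or erythroid genes passed in S vs C. The part of these cells in the member values was not tested.

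Stock was examined as a comparison added after the data were seen, with group but not sex in the model. All 3 SM2 animals were male and all females were BW animals of S, so stock and sex cannot be fully told apart here. Between the 3 SM2 and the 13 BW animals, 7 of 43 members (16.3%) passed an adjusted p under 0.1, a smaller share than the 21.8% of all genes, and 3 or 4 passed with 1 SM2 animal left out at a time. Tyms was higher in SM2, at 1.48 CPM in 10876, 4.29 in 10865 and 5.97 in 10880, with a mean of 3.91 ± 2.27 CPM (SD, n = 3) against 0.782 ± 1.78 CPM in BW (SD, n = 13). Its log2 fold change between stocks was 3.20 ± 0.73 (adjusted p = 0.0070). E2f2 was also higher, at 3.84 CPM in 10876, 4.41 in 10865 and 8.77 in 10880, against 0.381 to 3.89 CPM in BW (1.62 ± 0.37, adjusted p = 0.0077). The SM2 animals were the highest of their group for both genes, except that 36016 had more Tyms than 10880.

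The other 5 members were lower in SM2. The cyclin E genes were among them, Ccne2 with 0.492 CPM in 10876, 0.126 in 10865 and 0.609 in 10880 against 0.592 to 2.55 CPM in BW (-1.999 ± 0.55, adjusted p = 0.021). Ccne1 had a log2 fold change of -1.72 ± 0.59 (adjusted p = 0.058). Mcm2 was 1.28 CPM in 10876, 3.78 in 10865 and 0.731 in 10880 against 2.47 to 9.54 CPM in BW (-1.46 ± 0.45, adjusted p = 0.037). Mcm6 (-0.79 ± 0.27, adjusted p = 0.060) and the clamp loader gene Rfc4 (-0.73 ± 0.25, adjusted p = 0.059) were also lower. The highest Mcm6 values of BW were those of the S females, 11.7 CPM in 35955, 14.8 in 35982 and 25.5 in 35990. With each SM2 animal left out in turn, E2f2 passed each time.

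**Figure D4:**
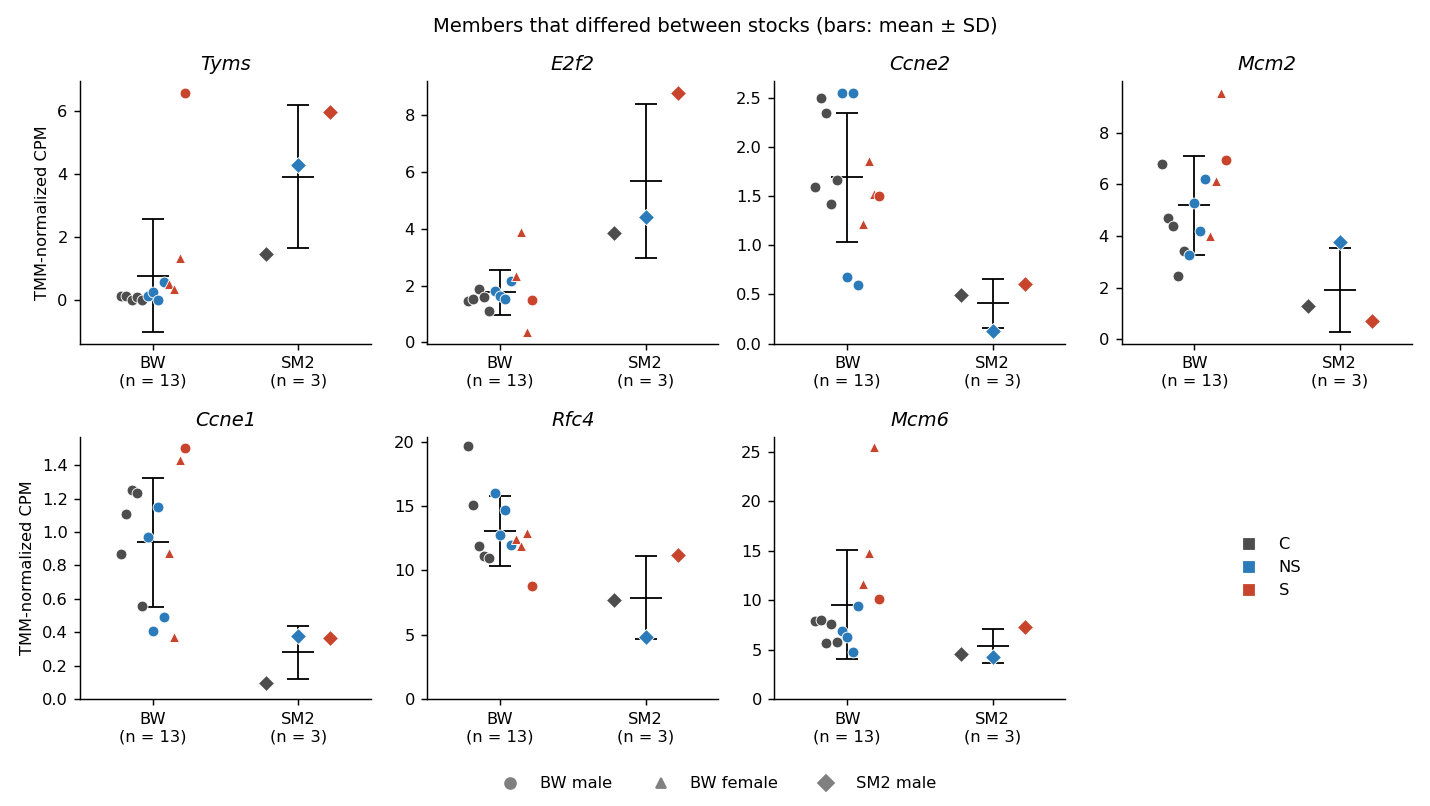
TMM-normalized CPM (vertical axes, linear) of the 7 members that passed an adjusted p under 0.1 between stocks, for 13 BW and 3 SM2 animals, with the mean and SD as bars; colours give the group and shapes the sex and stock. SM2 animals lie high for Tyms and E2f2 and low for Ccne1, Ccne2, Mcm2, Mcm6 and Rfc4, with overlap between the stocks.

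The coordination of the members with the transcriptome was described by Pc. For each gene, Pearson's r with every other gene is taken across the animals of each group, and Pc is the correlation between those r values of a pair of groups, so that a positive Pc means a retained pattern and a negative one an inverted pattern. On counts as deposited, the median Pc of the 44 members was 0.147 for S vs C, 0.0606 where NS was set against C and 0.0993 for S vs NS, each below the median of all genes (0.201, 0.102 and 0.174). These counts are not scaled to the library total, so differences in depth between animals enter each r. A Pc below -0.2 was found for 2 members in S vs C (Gins1 and Pole), where 2.6% of all genes were so low, for Chaf1b in NS vs C, where 2.92% were, and for 5 members in S vs NS (Cdc6, Mcm4, Mcm10, Pole and Dtl), where 3.53% were. Cdc6 had the lowest Pc of the members in S vs NS, at -0.320. In S vs C the Pc of Lig1 was 0.279 and that of Ccnd1 was 0.172.

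Each r within a group came from 5 or 6 animals, and Pc changed with single animals and with the scaling of the counts. In S vs NS no member was below -0.2 without 10865, without 10880 or in BW animals alone. In these settings 0.706%, 0.0757% and 0.391% of all genes were. On CPM by total count, 7 members (Cdc6, Mcm10, Pole, Pold1, Fen1, Chaf1a and Dtl) were below -0.2 in S vs NS, where 7.32% of all genes were, and Mcm4 was not, at -0.0306. The median Pc on that scale was -0.0673 over the members and 0.166 over all genes. In BW animals alone on CPM, 7 members were below -0.2, with 6.78% of all genes. In S vs C, 0 members were below -0.2 on CPM by total count, where 6.05% of all genes were. There Pole was at 0.188 and Gins1 at -0.0804. On that scale the median Pc of all genes was 0.105 for S vs C and 0.154 for NS vs C. S vs C thus had the lowest median of the comparisons on CPM by total count and the highest on counts as deposited. These values are given as a description of the animals, without a test.

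**Figure D5:**
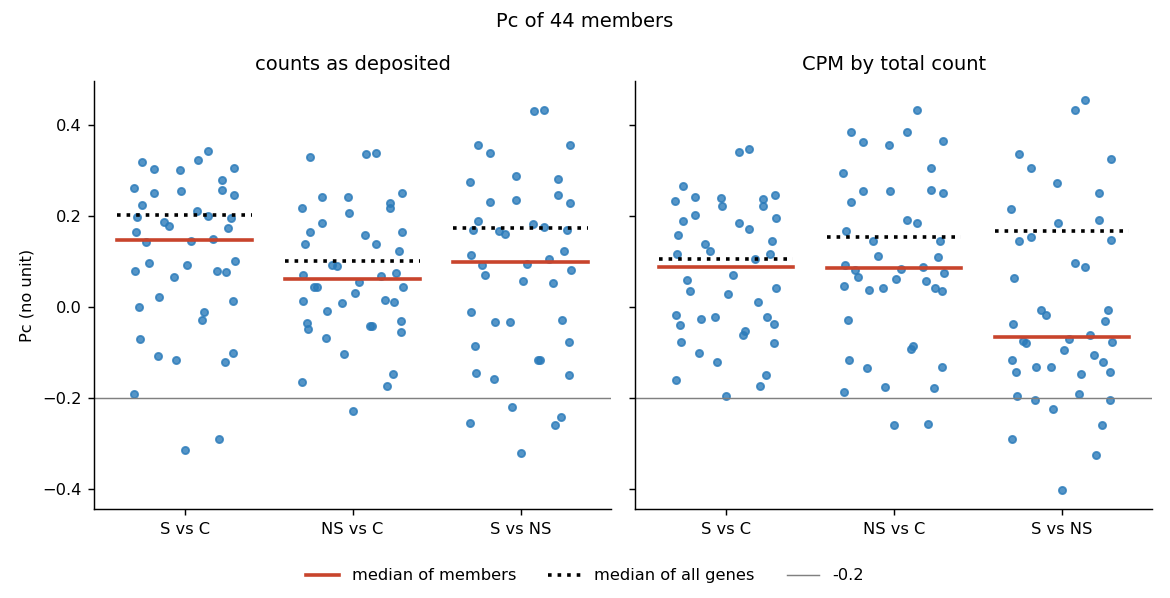
Pc (vertical axis, no unit) of 44 members in each comparison, on counts as deposited (left) and on CPM by total count (right); red lines are the medians of the members, dotted lines the medians of all genes and the grey line -0.2. In S vs NS on CPM the median of the members (-0.0673) lies below that of all genes (0.166), and the other medians lie closer together.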

How the data were processed

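The authors sequenced RNA of 16 deer mouse livers in paired-end reads, aligned them with STAR 2.7.2 to the HU_Pman_2.1 genome and used featureCounts to count those that mapped uniquely. The deposited values are these raw counts. The strand setting and the conversion to symbols are not given in the sources used here, so values of close paralogs and of overlapping or antisense genes are uncertain. All columns were mapped to an animal and all lines name a gene. Replicate numbers only name animals, which are separate individuals.

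The deposited counts were tested in R 4.3.3 with edgeR 4.0.16 (quasi-likelihood test, TMM, all 16 animals, no covariates) for the 12639 genes that reached 0.5 CPM in any animal, with Benjamini-Hochberg adjustment over all of them. Calls needed an adjusted p under 0.1 and at least 2-fold. The SE is the log2 fold change divided by the square root of F. Ranges of CPM are lowest to highest, and a gene with at most 3 counts in every animal of a group was taken as at the floor. Pc was computed in Python 3.11.15 with numpy 2.4.6 and pandas 2.3.3, and figures with matplotlib 3.10.9.

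The members and lists were chosen with earlier results of these data known. Named members are those with an adjusted p under 0.1, the 5 with the largest change in each comparison and a fixed set of regulators and enzymes; others were named after their values were seen. The edgeR and Pc steps were tested on simulated data. Other settings tried were RLE size factors, DESeq2 1.42.0, different filters and thresholds, 2 groups alone, sex or stock as covariate, males or BW alone and each animal left out. Stock as a comparison, Pc on CPM in BW animals and the omission of 35990 and 36016 were added after the data were seen.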

Additional observations from a re-analysis of the deposited data

Results flagged for a closer look

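In 11 of 129 member and group combinations, the highest or lowest animal was far from the others of its group. Low counts are skewed and the combinations share the same 16 animals, so this number was not compared with chance. Of these, 3 belong to S animal 35990, with 2.19 CPM of Gins2 (23 counts, others 0.349 to 0.853), 12.02 CPM of Rpa2 (others 6.49 to 7.80) and 1.53 CPM of Ccnd2 (16 counts, others 0.244 to 0.563). A further 4 belong to the SM2 animals of C and NS. Tyms was 1.48 CPM in 10876 (others 0 to 0.144) and 4.29 CPM in 10865 (others 0 to 0.592), and E2f2 was 3.84 CPM in 10876 (others 1.11 to 1.88) and 4.41 CPM in 10865 (others 1.53 to 2.17). The others were 13.4 CPM of Mcm10 in C animal 36007 (others 1.56 to 5.79), 28.2 CPM of Lig1 in NS animal 35937 (others 21.0 to 21.9), 29.7 CPM of Rrm1 in S animal 36016 (others 13.0 to 17.8) and 0.255 CPM of Ccnd2 in NS animal 35963 (2 counts, others 0.790 to 0.882).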

How the results depend on the processing

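None of the 7 members with an adjusted p under 0.1 in S vs C turned its direction in 26 alternative settings. Lig1 passed in 26, Ccnd1 and Mcm4 in 25, Chaf1a in 23, Mcm6 in 21, Mcm10 in 20 and Mcm5 in 13. The count of members called in S vs C ran from 4 to 7 with 1 animal left out (4 without 36007). It was 8 with DESeq2, for which the share of all genes called is not given here. With stock as a covariate it was 9 (20.9%, against 5.21% of all genes). With sex as a covariate it was 5 (11.6%, against 6.08% of all genes), namely Lig1, Ccnd1, Mcm4, Dtl and Tyms. In that setting Mcm6 (0.40, adjusted p = 0.52), Mcm5 (adjusted p = 0.21), Chaf1a (adjusted p = 0.21) and Mcm10 (adjusted p = 0.20) did not pass edgeR's test. Without 35990 and 36016 the count was 1 (2.33%, against 1.55%), and the median log2 fold change was 0.16 for S vs C and 0.10 for S vs NS. With 1 animal left out the medians were 0.20 (without 35990) to 0.44 for S vs C, and 0.21 (without 35990) to 0.42 for S vs NS. In S vs NS, DESeq2 called 2 members and every other setting 0; in NS vs C every setting called 0. The cause of these changes was not tested.

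Members with a Pc below -0.2 numbered 1 to 3 in S vs C, 0 to 2 in NS vs C and 0 (without 10865 or 10880) to 8 (without 35987) in S vs NS with 1 animal left out. In S vs C, 0 members were so low on CPM by total count, on TMM-normalized CPM and on CPM in BW animals alone. Of all genes, 6.05%, 5.17% and 7.41% were. In NS vs C, 2, 4 and 6 members were so low in these settings, against 5.73%, 6.67% and 6.41% of all genes. In S vs NS, 7 members were so low in each of these settings, against 7.32%, 6.92% and 6.78% of all genes. There were 0 in BW animals alone on counts, where few genes of any kind were below -0.2 (0.391%). Between stocks, 3 (without 10865) to 4 members passed. Depth limits the members with under 200 reads in all, for which only large changes were detectable.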
